A study of Mus musculus with 3 samples.

Results

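The 48 genes described here encode the DNA replication machinery: the proteins that license origins, unwind DNA, copy it, load the sliding clamp and supply deoxynucleotides. They were chosen by gene name from a list spanning 11 roles and not by a rule on their measured values. Earlier results of these data were, however, known when they were chosen. All 48 were found among the 47480 gene symbols of the tables. All 48 also passed a filter on low counts that left 12710 genes. Their RNA was measured in 3 mammary tumours of the FVB-MMTV-Neu strain, a line that expresses the Neu (Erbb2) oncogene in mammary epithelium under the viral MMTV promoter. According to the growth protocol, the tumours were orthotopic transplants in syngeneic hosts and were left untreated for 7 days once they measured 5 mm across, although the design text speaks of tumours from untreated MMTV-Neu mice. The age of the mice is not given in the sources used here. The labels form 1 group, so no conditions were compared. The tumours are named 1, 2 and 3 in the order of deposition, and nothing says whether they came from separate donor mice, so the spread between them may be partly technical.

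Chromosomes are copied once per cell cycle because licensing and firing of origins are kept apart in time. In G1 the origin recognition complex, Cdc6 and Cdt1 load the MCM2-7 ring onto DNA, and geminin (Gmnn) later blocks Cdt1. In S phase Cdc45 and GINS join the ring to form the active helicase, polymerase alpha-primase lays primers, and polymerases epsilon and delta extend them with the clamp PCNA. E2F transcription factors drive many of these genes at the G1/S boundary, and in tumours their RNA is often read as a sign of cycling cells. In a bulk sample such as these, fewer cycling cells and less RNA per cell cannot be told apart.

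Levels are CPM, counts scaled to library size with the TMM factors of edgeR, and differences are on a log2 CPM scale with a prior count of 2. A gene was said to stand apart in a tumour when its level there exceeded, or fell short of, that in each of the others by 2-fold or more. With 1 library per tumour this describes the libraries and carries no test. The share of all 12710 genes that did the same is given as the background. The libraries held 47449153, 11388769 and 17147394 estimated counts in tumours 1, 2 and 3. The replication genes took 0.368, 0.174 and 0.274% of them, or 174606, 19808 and 46964 counts. Per the file headers a single run held all libraries, tumour 1 on lane 1, the others on lane 5, so lane and tumour 1 cannot be told apart.

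With TMM scaling the replication genes had a narrower spread between tumours than the median gene. Of the complexes, only GINS had subunits apart in both directions in tumour 1, Gins4 above and Gins2 below. Of the 48, 25 (52.1%) stayed within 2-fold over the 3 tumours, against 34.4% of all genes. Their median SD of log2 CPM was 0.52, compared with 0.72 over all genes. On library totals alone 18 stayed within 2-fold and the median SD was 0.76, and the spread of all genes was not computed there. The background was not matched for level: in tumour 1 the median member was at 38.3 CPM and the median gene at 22.6 CPM. In tumour 1, 8 members (16.7%) stood above both other tumours, against a background of 22.1%. These were Orc2, Orc3, Mcm6, Gins4, Pole, Pole2, Rfc4 and Rrm1. Another 4 (8.33%, background 20.7%) stood below: Cdt1, Gins2, Pold2 and Rpa2. Both shares lie under the background, so the genes are set out below for what they encode and not for their number. At 4-fold, 2 members stood above (Orc3 and Pole, 4.17%, background 6.05%) and 1 below (Gins2, 2.08%, background 8.21%).

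**Figure D1:**
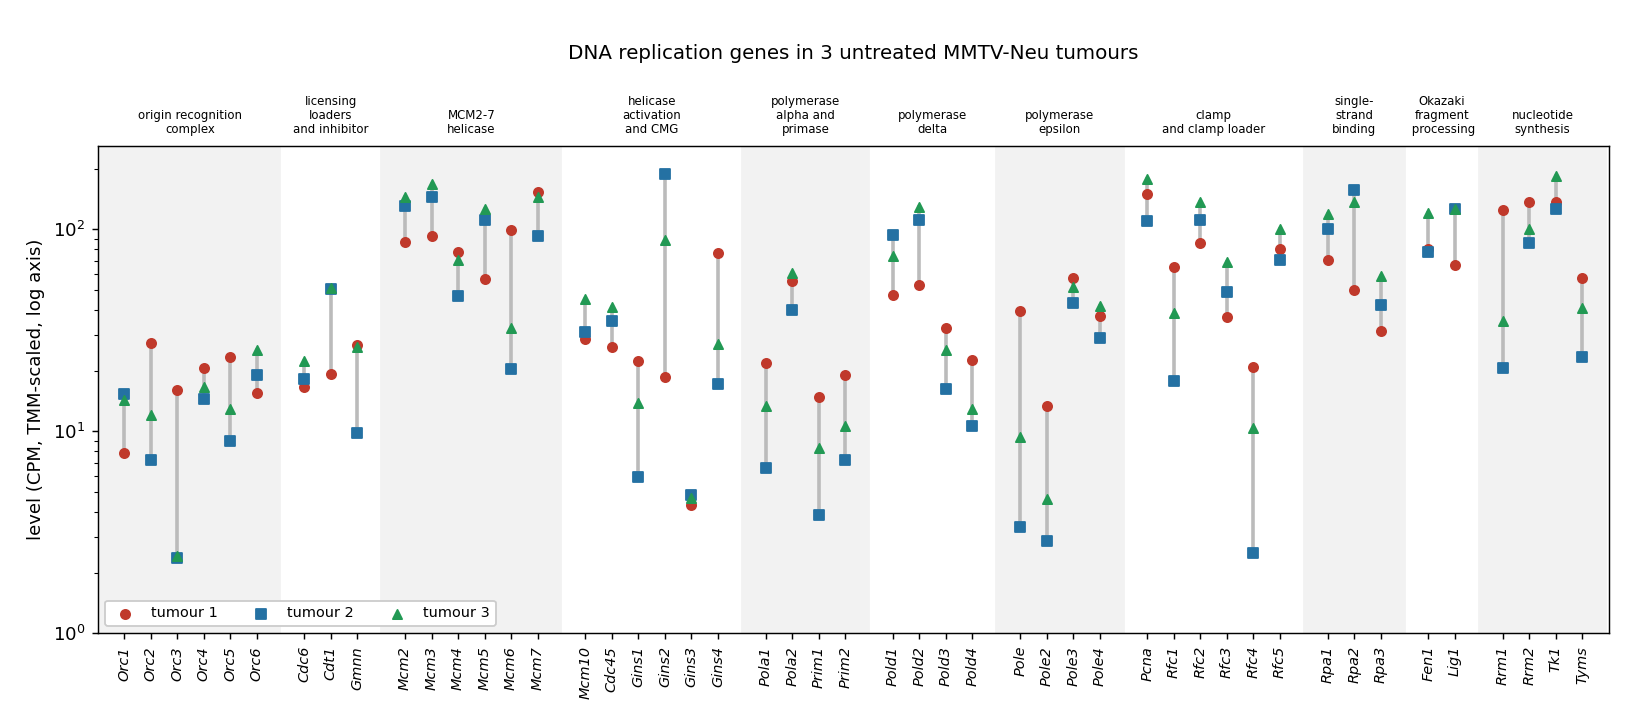
Level of each replication gene in CPM (log axis) in tumour 1 (circles), tumour 2 (squares) and tumour 3 (triangles), grouped by role; grey lines join the lowest and highest tumour. The widest lines belong to Pole, Gins2 and Rfc4, while Gins3 is nearly level at 4.34 to 4.85 CPM.

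How many members stood above or below in tumour 1 changed with the scaling. Without TMM factors, on library totals alone, 18 did so above (37.5%, all genes 40.4%) and 1 below (2.08%, all genes 10.5%), so that 94.7% of those apart were above where TMM gave 66.7%. The median gene itself was shifted by 0.84 (log2) for tumour 1, −0.70 for tumour 2 and −0.14 for tumour 3. Of the members' differences per tumour, 67 moved by at least the gene's own SD on library totals and 77 did not. Statements below of which tumour was lowest or highest therefore hold for TMM scaling. Against tumour 2 alone (tumour 3 left out), 18 members (37.5%) stood above in tumour 1, with 31.6% of all genes. Of the 12 members apart in tumour 1, 7 kept their call in all 11 alternatives at the 2-fold threshold that hold tumour 1: Orc3, Mcm6, Gins4, Pole, Pole2, Rrm1 and Gins2. The other 5 each lost it in some, as stated beside them.

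Origin licensing begins with the origin recognition complex, and 2 of its 6 subunits stood above in tumour 1. Orc3, part of the core of the complex (GRCm38 chr4:34570796-34614944), was at 16.0 CPM in tumour 1, 2.36 in tumour 2 and 2.42 in tumour 3, from 1108, 19 and 38 counts. Tumour 1 was thus high, and the 95% Poisson intervals of tumours 2 (1.42 to 3.69 CPM) and 3 (1.71 to 3.32 CPM) overlap. Such intervals cover counting error only. Orc2, another core subunit, was at 27.5, 7.21 and 12.0 CPM. It also stood above in tumour 1, a call that ended when the trend with GC content and transcript length was removed from its difference of 1.56. Orc6, the subunit that holds the complex to Cdt1, was at 15.6, 19.0 and 25.4 CPM, and Orc1, the ATPase that varies with the cell cycle, at 7.85, 15.3 and 14.3 CPM. Tumour 1 was lowest for these, the reverse of Orc2 and Orc3. Orc4 was at 20.6, 14.4 and 16.7 CPM. Orc5 was at 23.4, 8.95 and 12.8 CPM, more than 2-fold apart between tumours 1 and 2 only.

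Among the licensing factors, Cdt1 was low in tumour 1 and its inhibitor geminin low in tumour 2. Cdt1, which brings MCM2-7 to origins, was lowest in tumour 1, at 19.3 CPM, with 50.5 and 51.4 CPM in tumours 2 and 3. That difference of −1.39 became −0.75 without the GC and length trend and no longer passed 2-fold, nor did it with library totals alone. Gmnn was at 26.7, 9.82 and 26.2 CPM, so that tumours 1 and 3 were alike in level and tumour 2 was below both. The ratio of Gmnn to Cdt1 counts, which no scaling between libraries touches, was 1.38 in tumour 1, 0.195 in tumour 2 and 0.510 in tumour 3, a 7.10-fold spread between tumours 1 and 2. Cdc6, the ATPase that works with the origin recognition complex, was nearly level at 16.5, 18.1 and 22.3 CPM.

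The MCM2-7 helicase holds each subunit once, yet Mcm6 RNA departed from the rest. Mcm6 (chr1:128331590-128359664) was at 99.6 CPM in tumour 1 (95% Poisson interval 97.2 to 101.9) against 20.4 (17.4 to 23.8) in tumour 2 and 32.7 (29.9 to 35.6) in tumour 3. Tumour 1 was high, and the intervals of the 3 tumours did not overlap. The partners Mcm2 (87.0, 131 and 144 CPM), Mcm3 (92.8, 145 and 169 CPM) and Mcm5 (57.0, 111 and 126 CPM) were lowest in tumour 1. On library totals alone these partners were lowest in tumour 2, with Mcm2 differences of 0.19 in tumour 1 and −0.48 in tumour 2. Mcm4 (77.5, 46.6 and 70.6 CPM) and Mcm7 (153, 93.2 and 145 CPM) were lowest in tumour 2. Thus 1 of 6 subunits stood apart. The ratio of Mcm6 to Mcm2 counts was 1.14, 0.156 and 0.227 in tumours 1, 2 and 3, so that it was 7.33 times higher in tumour 1 than in tumour 2. Per kilobase of the longest transcript, Mcm6 made up 13.9% of the complex's RNA in tumour 1 and 2.90 and 3.68% in the others.

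To show the DNA in front of these genes, a stretch of 80 bases within the 250 before the RefSeq start (GRCm38.p6) is printed for 4 MCM subunits that went different ways and for 3 other members apart or lowest in tumour 1, 5′ to 3′ on the strand of the gene. Capitals mark E2F-type letters (TTTCCCGC, TTTCGCGC, TTTGCCGC or TTTGGCGC, either strand, overlaps allowed), or, for Mcm2 and Rrm1, whose windows hold none, the letters CCAAT on either strand. The bases before the start at which each stretch begins and ends are given with it.
Mcm6, chr1:128359741-128359820, minus strand, 115 to 36 before the start: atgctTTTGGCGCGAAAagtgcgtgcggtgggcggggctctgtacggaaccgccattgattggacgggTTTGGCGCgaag
Mcm5, chr8:75109322-75109401, plus strand, 187 to 108 before the start: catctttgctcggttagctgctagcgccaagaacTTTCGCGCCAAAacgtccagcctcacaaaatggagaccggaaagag
Mcm7, chr5:138172005-138172084, minus strand, 201 to 122 before the start: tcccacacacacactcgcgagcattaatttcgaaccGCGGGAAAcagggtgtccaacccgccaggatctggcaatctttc
Mcm2, chr6:88898914-88898993, minus strand, 213 to 134 before the start: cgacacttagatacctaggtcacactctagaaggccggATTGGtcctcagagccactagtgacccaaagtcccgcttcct
Orc3, chr4:34614943-34615022, minus strand, 80 to 1 before the start: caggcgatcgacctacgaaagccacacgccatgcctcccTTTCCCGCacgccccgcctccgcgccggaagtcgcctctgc
Orc1, chr4:108579374-108579453, plus strand, 80 to 1 before the start: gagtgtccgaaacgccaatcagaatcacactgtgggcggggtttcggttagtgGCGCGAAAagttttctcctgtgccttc
Rrm1, chr7:102441589-102441668, plus strand, 106 to 27 before the start: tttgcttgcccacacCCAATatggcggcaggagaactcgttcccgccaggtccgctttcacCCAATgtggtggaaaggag

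E2F-type letters were common in front of the replication genes. RefSeq windows from 250 bases before to 50 bases after the start were matched for 40 members, and 16 of these (40.0%) held the letters. Of all 27025 genes with a window 2.60% did, and of the 9452 with a window that passed the filter 4.72% did. In the 250 bases before the start alone it was 10 of 40 members , against 2.16% of all genes. CCAAT, on either strand, was in front of 24 of 40 (60.0%, all genes 41.1%, genes past the filter 42.6%). The GC box GGGCGG was in 30 of 40 (75.0%), close to the 69.5% of genes past the filter. The letters TTTGAA of the cell cycle homology region were in 5 of 40, with 20.2% over all genes. A match is a description of letters and not a site. The 16 members with E2F-type letters included members apart in tumour 1 both above (Orc3, Mcm6 and Pole2) and below (Cdt1), and their median difference of tumour 1 was −0.21. The 24 matched members without them included Orc2, Rfc4 and Rrm1 above and Pold2 and Rpa2 below, with a median of 0.13. Gins1, Gins2, Gins4, Gmnn, Mcm4, Pole, Prim2 and Rfc2 were not matched.

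GINS, the 4-subunit ring that joins Cdc45 and MCM2-7, showed the most unequal subunits. Gins2 (chr8:120578633-120589304) was at 18.6 CPM in tumour 1, 189 in tumour 2 and 88.2 in tumour 3. This was the largest difference below in tumour 1 among the 48 (−2.79), and Gins2 was also the only member at least 2-fold above both others in tumour 2 (1 of 48, 2.08%, background 5.43%), a call that ended when the GC and length trend was removed or when library totals were used. Gins4 (chr8:23226616-23237659) ran the other way at 76.6, 17.2 and 27.0 CPM. The ratio of Gins4 to Gins2 counts was accordingly 4.12, 0.0908 and 0.306 in tumours 1, 2 and 3, a 45.4-fold spread. Gins1 was at 22.4, 5.97 and 13.8 CPM, low in tumour 2, while Gins3 held at 4.34, 4.85 and 4.70 CPM with an SD of 0.263 CPM (n = 3), the steadiest of all 48. Per kilobase, Gins2 made up 5.68% of GINS RNA in tumour 1, 70.7% in tumour 2 and 39.6% in tumour 3. With the median transcript length in place of the longest these shares were 8.55, 78.2 and 48.4%, with the same order of tumours. Exons of Gins2 overlap those of Gse1 on the opposite strand over 2758 bases. The strand setting was not stated, so it is not known whether such reads were told apart. Gse1 had 199, 10 and 35 estimated counts beside the 1285, 1520 and 1387 of Gins2. These counts do not show to which gene reads of the overlap were assigned, and this was not tested.

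The other helicase activators were even. Cdc45, the partner of GINS, was at 26.3, 35.1 and 41.4 CPM, and Mcm10, which helps to fire the assembled helicase, at 28.8, 31.0 and 45.2 CPM. Neither stood apart.

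**Figure D2:**
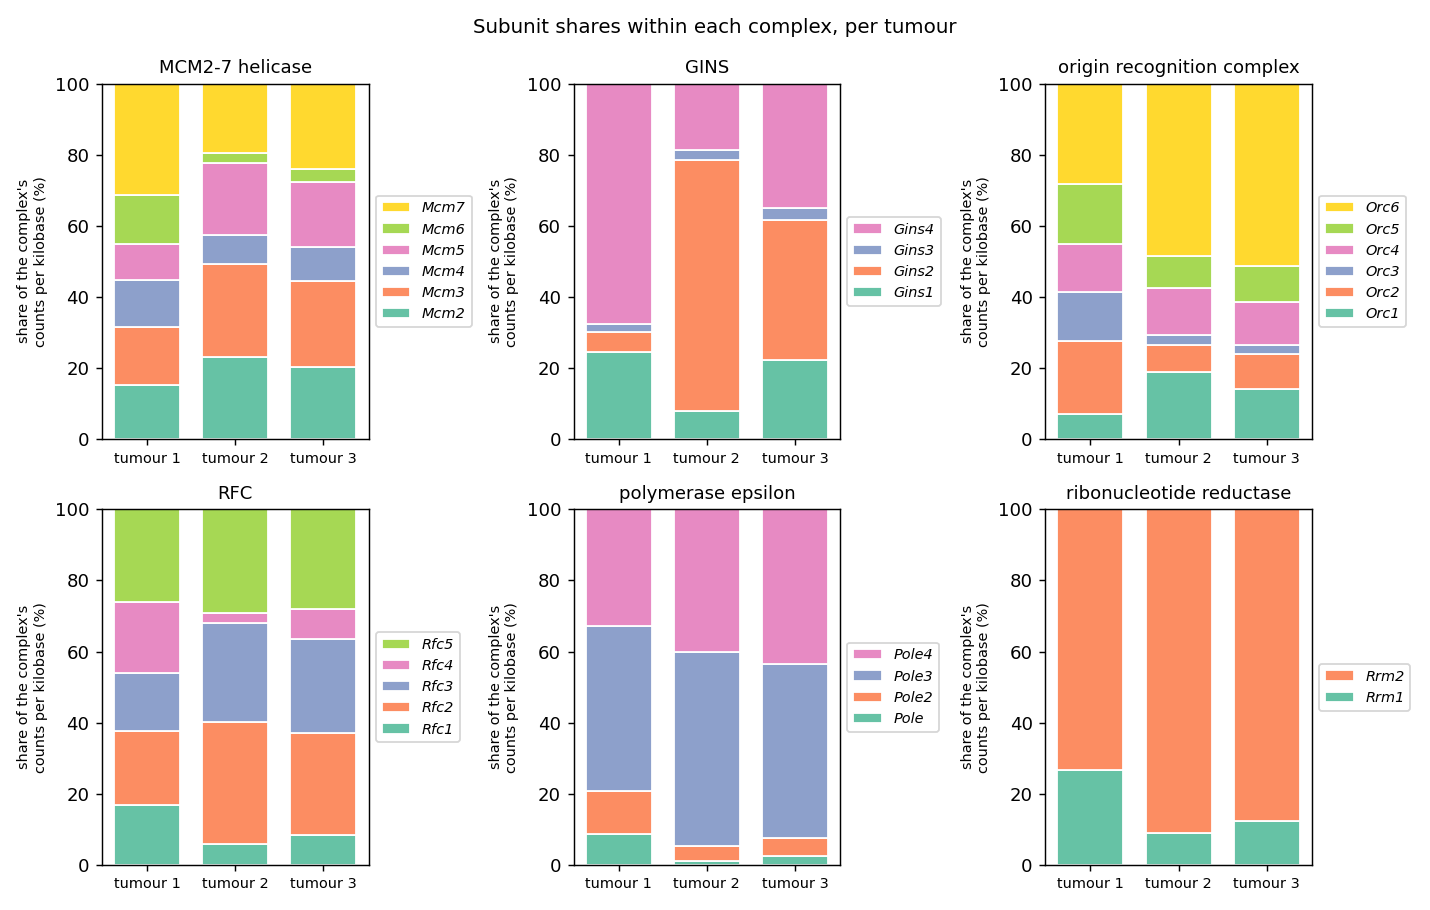
Share of each subunit in its complex's counts per kilobase of the longest transcript, in percent, per tumour, for 6 complexes. The bars of tumour 1 differ from those of tumours 2 and 3: Mcm6 takes 13.9% of MCM2-7 in tumour 1 and 2.90 and 3.68% in the others, and Gins2 takes 5.68% of GINS in tumour 1 and 70.7% in tumour 2.

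Polymerase epsilon, the leading-strand enzyme, split by subunit. Pole, its catalytic subunit (chr5:110286306-110337474), was at 39.4 CPM in tumour 1, 3.36 in tumour 2 and 9.41 in tumour 3, from 2724, 27 and 148 counts. It had the widest range of all members, 11.5-fold, and stood above in tumour 1 and below in tumour 2. Pole2, the accessory B subunit, was at 13.4, 2.86 and 4.64 CPM, and its exons overlap those of Gm49384 on the same strand over 245 bases. The small histone-fold subunits did not follow: Pole3 was at 57.8, 43.1 and 51.7 CPM and Pole4 at 37.2, 29.0 and 41.6 CPM. The ratio of Pole to Pole3 counts was 0.681, 0.0778 and 0.182 in tumours 1, 2 and 3.

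With TMM scaling, polymerase delta, the lagging-strand enzyme, leaned the other way for Pold1 and Pold2. Little of this was left without the GC and length trend. Pold2, the regulatory B subunit, was lowest in tumour 1, at 53.3 CPM, with 111 and 130 CPM in tumours 2 and 3. Its call below in tumour 1 (difference −1.17) ended in 4 alternatives: library totals alone, upper-quartile factors, no filter, and removal of the GC and length trend, which left a difference of −0.15. Pold1, the catalytic subunit, was at 47.1, 94.1 and 73.5 CPM, and stayed just within 2-fold. Its difference of −0.82 in tumour 1 became −0.10 without the trend and 0.03 on library totals alone. Pold3 (32.6, 16.2 and 25.4 CPM) and Pold4 (22.6, 10.7 and 12.8 CPM) were highest in tumour 1, so the ratio of Pold2 to Pold3 counts was 1.63, 6.89 and 5.09. The GC and length trend was not removed from this or the other count ratios. GC contents were 58.75% for Pold2 and 48.55% for Pold3. Pold4, at a GC content of 57.3%, had a difference of 0.95 that became 2.13 without the trend.

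In polymerase alpha-primase, which lays the RNA-DNA primers, all 4 subunits were lowest in tumour 2 and 2 of them, Pola1 and Prim1, at least 2-fold below both others. The catalytic subunit Pola1 was at 21.8, 6.59 and 13.4 CPM, the primase Prim1 at 14.8, 3.85 and 8.26 CPM, and the primase partner Prim2 at 18.9, 7.21 and 10.6 CPM. Prim2 did not pass 2-fold against tumour 3. Pola2, the regulatory B subunit, was at 55.4, 40.0 and 60.6 CPM, within 2-fold.

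The sliding clamp was within 2-fold over the tumours. Pcna was at 149, 110 and 178 CPM, or 146 ± 33.8 CPM (SD, n = 3). A processed copy, Pcna-ps2, took 293, 6 and 116 estimated counts beside 10312, 887 and 2793 of Pcna, and reads may be split between them. Of the clamp loader, Rfc4 (chr16:23113943-23127737) ranged 8.23-fold, at 20.9, 2.49 and 10.4 CPM from 1448, 20 and 163 counts. Its call above in tumour 1 lay at the threshold: it ended with DESeq2 size factors, with a mean CPM of at least 5, with a prior count of 10 and without tumour 2. The large subunit Rfc1 was at 65.4, 17.8 and 38.7 CPM, low in tumour 2. Rfc2 (85.9, 111 and 136 CPM), Rfc3 (37.0, 48.8 and 68.7 CPM) and Rfc5 (80.4, 70.4 and 100.4 CPM) stayed within 2-fold, with tumour 3 highest for each. Exons of Rfc4 overlap those of Eif4a2 on the opposite strand over 194 bases, and Eif4a2 had 10196, 623 and 1602 counts.

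The single-strand binding protein RPA protects unwound DNA. Its middle subunit Rpa2 had 50.1 CPM in tumour 1, 156 in tumour 2 and 137 in tumour 3, a difference of −1.54 that ended as a call only with library totals alone. Rpa1, the large subunit, was at 70.7, 100.3 and 119 CPM, and Rpa3 at 31.3, 42.1 and 58.7 CPM. All 3 were lowest in tumour 1, but on library totals alone only Rpa2 was. Of the enzymes that join Okazaki fragments, the ligase gene Lig1 was at 66.7, 127 and 126 CPM and the flap nuclease gene Fen1 at 79.6, 77.7 and 121 CPM, within 2-fold.

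In deoxynucleotide supply, 1 of 4 members stood apart. Tk1, the thymidine kinase of S phase, was at 137, 126 and 184 CPM, or 149 ± 30.6 CPM (SD, n = 3). The subunits of ribonucleotide reductase parted. Rrm1, the large subunit (chr7:102441695-102469771), had 125 CPM in tumour 1, 20.6 in tumour 2 and 35.0 in tumour 3, whereas Rrm2, the small subunit whose amount follows S phase, was at 137, 85.3 and 100.8 CPM. Rrm1 stood apart and Rrm2 did not, and their count ratio was 0.911, 0.242 and 0.347. Tyms, which makes thymidylate, was at 57.6, 23.2 and 40.6 CPM.

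**Figure D3:**
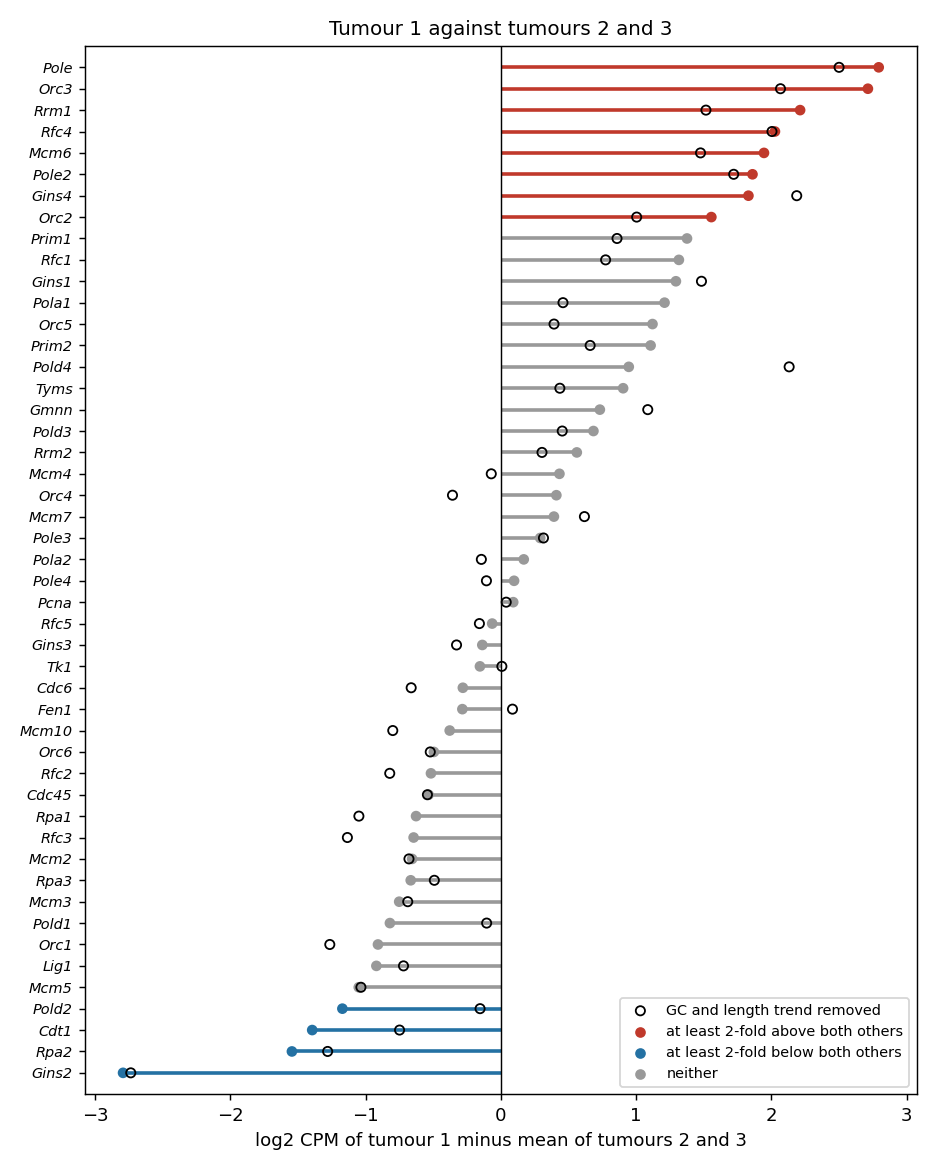
Log2 CPM of tumour 1 minus the mean of tumours 2 and 3 for each replication gene (filled points; red at least 2-fold above both others, blue at least 2-fold below, grey neither), with the value after removal of the GC and length trend (open circles). Pole is highest (2.79, and 2.50 without the trend) and Gins2 lowest (−2.79 and −2.74) in either form, while Orc3 moves from 2.71 to 2.07 and Pold2 moves from −1.17 to −0.15.

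Compared per kilobase of the longest transcript, the mean level was highest for Pcna at 95.9 CPM per kilobase and lowest for Gins3 at 1.84. With the median transcript length the highest was Tk1 at 189 CPM per kilobase, Pcna was the 4th at 177, and Gins3 was again lowest at 2.92. The lowest place was thus the same with either length and the highest was not.

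Within the lane shared by tumours 2 and 3, tumour 2 was the lower for most members. Of 48, 42 (87.5%) were lower in tumour 2 than in tumour 3 by any amount, against 51.6% of all genes, and the median difference was −0.51 (all genes −0.03). With library totals alone 47 of 48 were lower, against 71.5% of all genes, and without the GC and length trend 39 were, against 47.4% of all genes. Of the members, 7 (14.6%, background 8.81%) were at least 2-fold lower: Gmnn, Gins1, Pola1, Prim1, Pole, Rfc1 and Rfc4. The same 7 were at least 2-fold below both others in tumour 2 (14.6%, background 7.14%). Without the GC and length trend 4 of 48 were (8.33%, all genes 5.57%). With library totals alone it was 17 (35.4%, all genes 17.2%), and against tumour 1 alone, with tumour 3 left out, 18 (37.5%, all genes 31.6%). Rfc4 was 4.17 times higher in tumour 3 than in tumour 2, Pole 2.80 times and Gmnn 2.67 times. Gins2 alone was at least 2-fold higher in tumour 2 than in tumour 3 (2.08%, background 7.39%). Tumour 2 was the shallowest library, and the 20 counts of Rfc4 and 27 of Pole there allow 1.52 to 3.84 CPM and 2.21 to 4.88 CPM (95% Poisson). In tumour 3 no member stood 2-fold above (background 0.865%) or below (background 1.35%) both others, and its median difference was 0.35. Over the 3 tumours, tumour 2 was lowest for 29 members and tumour 1 for 19, and tumour 3 was lowest for none.

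**Figure D4:**
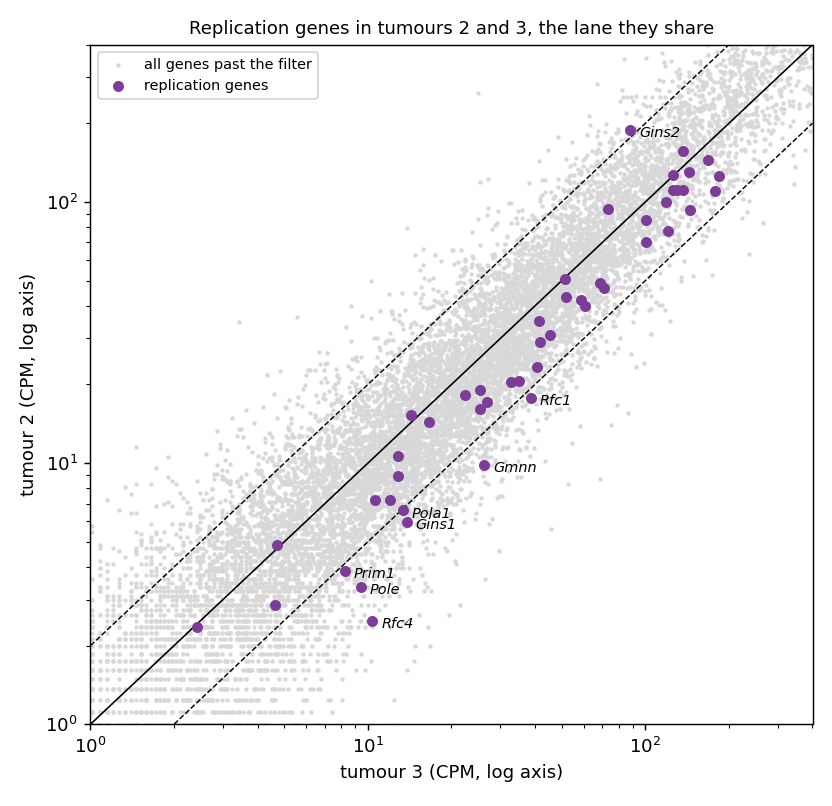
Level in tumour 2 against tumour 3 in CPM, both axes log, for the replication genes (purple) and all genes past the filter (grey); the solid line marks equal levels and the dashed lines 2-fold. Of the 48 members 42 lie below the solid line, 7 at or beyond the lower dashed line, and Gins2 beyond the upper one.

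GC content moved with the difference of tumour 1 among the replication genes. Across the 48 members, which are genes and no independent replicates, Spearman's rho with the GC content of the longest transcript was −0.52 (Pearson's r −0.45), and across 12343 genes rho was −0.30. The 8 members above in tumour 1 had GC contents of 38.6 to 50.9%, and the 4 below had 51.5 to 58.8%. The same ranges were not computed for all genes that stood apart. Transcript length had a rho of 0.07 over the members and 0.24 over all genes. With the trend over all genes removed, 9 members stood above (18.8%, all genes 19.4%) and 4 below (8.33%, all genes 18.9%). Orc2, Cdt1 and Pold2 lost their calls. Orc1 (GC content 46.75%) and Rfc3 (43.2%) below and Gins1 (46.9%) and Pold4 (57.3%) above gained one, so the 2 ranges then overlapped. The part of GC content in the differences was not tested beyond this removal.

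**Figure D5:**
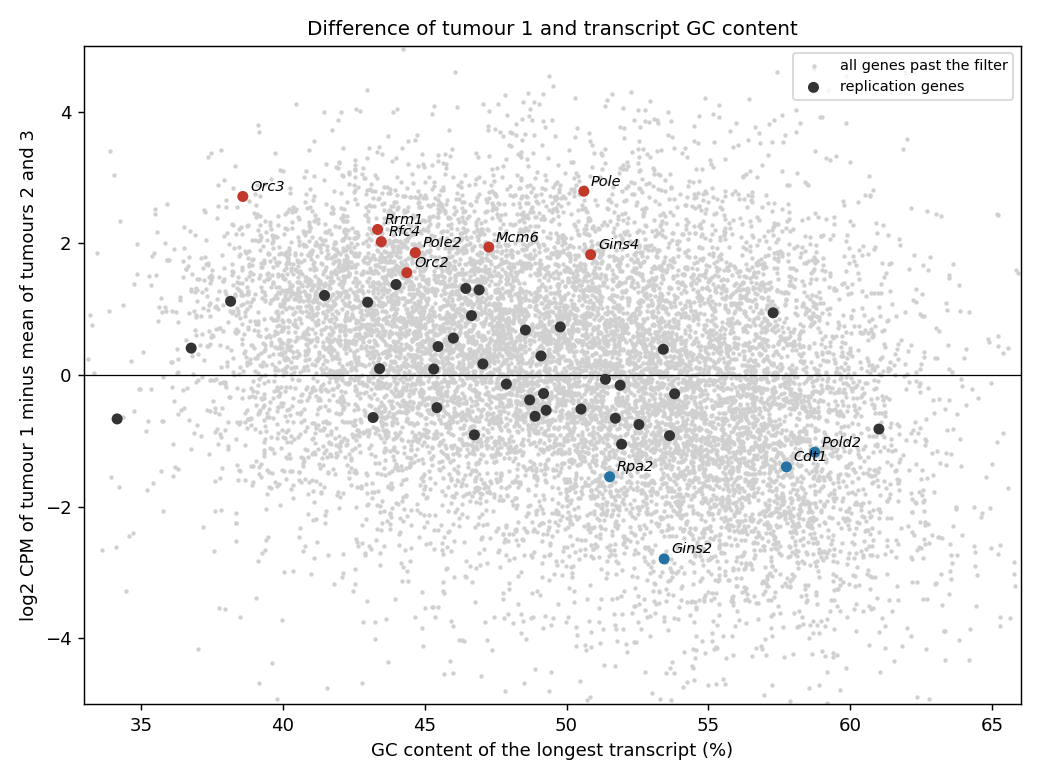
Difference of tumour 1 from the mean of tumours 2 and 3 (log2 CPM) against the GC content of the longest transcript in percent, for replication genes (large points; red at least 2-fold above both others in tumour 1, blue below, black neither) and all genes past the filter (grey; 112 genes lie outside the axes). The red points lie at 38.6 to 50.9% GC and the blue points at 51.5 to 58.8%.

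The other genes of the pathway were described in the same way. Of 32 further replication genes (origin firing, fork protection, chromatin assembly and topoisomerases), 9 (28.1%, all genes 22.1%) stood above in tumour 1, 1 (3.12%, all genes 20.7%) below, and 5 (15.6%, all genes 7.14%) below in tumour 2. Top2a, the topoisomerase of dividing cells, was at 199, 132 and 191 CPM, the histone chaperone gene Ssrp1 at 181, 107 and 161 CPM, and Chtf8, a subunit of an alternative clamp loader, at 82.0, 149 and 145 CPM. Supt16, the partner of Ssrp1 in the FACT complex, ranged most at 109, 8.82 and 12.6 CPM. Of 28 nucleotide supply genes outside the 48, 5 stood above and 5 below in tumour 1 (17.9% each) and 3 below in tumour 2 (10.7%). The shares of tumour 1 lie under those of all genes. Nme1, a nucleoside diphosphate kinase, had the highest mean and the widest range at 144, 1089 and 955 CPM. Its paralog Nme2 was at 165, 276 and 434 CPM, and Shmt2, the mitochondrial serine hydroxymethyltransferase, at 71.9, 399 and 396 CPM.

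Of 18 genes of the E2F and Rb axis and the G1/S cyclins, 3 stood above (16.7%) and 2 below (11.1%) in tumour 1, both shares under those of all genes. In tumour 2, 1 stood above (5.56%, all genes 5.43%) and 3 below (16.7%, all genes 7.14%). E2f1, an activator of replication genes, was at 50.7, 336 and 158 CPM, with the same order of tumours as Gins2. Its dimerization partners went the other way: Tfdp1 was at 106, 2.86 and 2.03 CPM and Tfdp2 at 29.0, 1.37 and 5.72 CPM. The repressor E2f7 was at 14.5, 68.1 and 60.4 CPM, and Ccna2, which encodes cyclin A, at 131, 151 and 199 CPM. Among 23 genes of G2 and M phase, 5 stood above and 5 below in tumour 1 (21.7% each, close to the 22.1 and 20.7% of all genes) and none apart in tumour 2. Mki67 was at 389, 62.3 and 85.4 CPM, while Birc5 (115, 515 and 446 CPM), Ube2c (145, 468 and 404 CPM) and Cdk1 (113, 378 and 467 CPM) were lowest in tumour 1.

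Summed markers of other cell types differed between the tumours. The summed level of 16 skeletal muscle markers was 9.77 CPM in tumour 1 against 55444 and 25740 CPM, of 5 erythroid markers 188, 3377 and 1855 CPM, of 9 macrophage markers 706, 3852 and 2498 CPM, and of 7 endothelial markers 161, 1217 and 431 CPM. Single genes carried much of some sums: C1qa was at 161, 2426 and 1369 CPM and Pecam1 at 56.45, 775 and 231 CPM. Of the 9 macrophage markers 4 stood below in tumour 1 (all genes 20.7%) and 1, Cd14 (114, 6.09 and 24.4 CPM), above (all genes 22.1%). Of the 7 endothelial markers 3 stood below in tumour 1 and 0 above. Luminal epithelial markers (10 genes), among them Krt8 and Epcam, were present at 2337, 1752 and 2645 CPM, and basal markers (7 genes) at 819, 426 and 305 CPM, with 6 of 7 at least 2-fold above the others in tumour 1. No marker of these 6 lists was at 0 counts in any library. T cell markers summed to 14.9, 22.7 and 30.0 CPM and B cell markers to 0.853, 1.37 and 2.99 CPM, with 4 of 5 B cell markers and 1 of 8 T cell markers at 0 counts in tumour 2. Lck made up most of the T cell sum, at 12.3, 11.9 and 22.3 CPM. With the muscle markers and Rn18s-rs5, a ribosomal RNA symbol, left out before scaling, all 12 members apart in tumour 1 kept their calls. Fibroblast markers summed to 4092, 6637 and 3674 CPM and adipocyte markers to 315, 331 and 200.3 CPM. The part of the other cell types in the differences was not tested.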

How the data were processed

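RNA of 3 untreated MMTV-Neu tumours was sequenced as paired reads of 50 bp. The deposited tables hold unscaled estimated counts for each gene symbol, made with Salmon per the file headers. The submitters' processing notes further name Picard, SAMtools, STAR and the build mm10. Their versions, the annotation and the strand setting were not stated in the sources.

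Estimated counts were rounded, and genes were kept by filterByExpr of edgeR 4.0.16 (R 4.3.3; minimum count 10, minimum total 15). TMM factors were 1.48, 0.722 and 0.936. Alternatives were DESeq2 1.42.0 size factors, library totals, upper-quartile factors, other filters, prior counts and thresholds, removal of a loess trend (span 0.5) with GC content and length, and leaving out each tumour. Lengths, GC contents and positions came from GENCODE M21 (GRCm38), which matched 45213 symbols. Promoter windows came from RefSeq (GRCm38.p6). For 18 members, exons overlap another gene. Protein motifs named in the plan were not analysed here.

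The members and lists were chosen with earlier results of these data known. Values in each tumour were given, by rule, for the member of each role with the highest mean, the one with the widest range and every member apart, and, of the pathway lists, for the 3 highest genes, the widest and any E2F list gene 4-fold apart. The values of other members, and of other genes named beside them, were added after they were seen.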

Additional observations from a re-analysis of the deposited data

How the results depend on the processing

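No paired analysis was possible because there is 1 group. The counts and medians kept within 1.5 times, or within the spread between tumours, with DESeq2 size factors, upper-quartile factors, other filters and prior counts and without the muscle markers. With library totals alone, 18 members stood above and 1 below in tumour 1 and 17 below in tumour 2, and the median differences were 0.98 in tumour 1 and −1.10 in tumour 2. At 4-fold these counts were 2, 1 and 1. Without the GC and length trend 4 stood below in tumour 2, and the median difference in tumour 1 was −0.03. Leaving out each tumour gave 7 to 18 members above and 4 to 5 below in tumour 1, 7 to 18 below in tumour 2 (18 without tumour 3), median differences of −0.16 to 0.43 in tumour 1 and −0.53 to −0.43 in tumour 2, and a median SD of 0.38 to 0.68. In these fits fewer tumours had to be exceeded. No member apart changed direction in any alternative. With 3 tumours in 1 group, depth limits mainly tumour 2, where Orc3 had 19 counts and Rfc4 20. The search for a PCNA-binding motif in proteins was not run.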

Other observations

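Orc2 and Nif3l1, whose exons overlap on opposite strands over 1150 bases, had similar counts in all 3 libraries: 1902, 58 and 189 for Orc2 and 1415, 52 and 140 for Nif3l1. The strand setting was not stated, so it is not known how reads of the overlap were assigned. Orc6 overlaps Vps35 over 171 bases, and Vps35 had 3184, 14 and 162 counts beside 1077, 153 and 399 of Orc6. These neighbours were looked at after the values of the members were seen.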
